A study of Mus musculus with 11 samples.

Results

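The genes described are 10 markers of cardiac fibroblasts, Pdgfra, Ddr2, Thy1, Dpt, Gsn, S100a4, Fap, Cthrc1, Meox1 and Cilp, chosen by symbol out of the 15274 genes of a mouse heart RNA sequencing table, and all 10 were found. Of these, 6 are markers of fibroblast identity (Pdgfra, Ddr2, Thy1, Dpt, Gsn and S100a4) and 4 mark activation (Fap, Cthrc1, Meox1 and Cilp). Pieces of injured and of uninjured heart were taken at day 7 from mice aged 8 weeks, of 2 inbred strains with no transgene or treatment in the labels. The groups were C3H injured (C3H/HeJ, n = 2), C3H uninjured (C3H/HeJ, n = 3), B6 injured (C57BL/6J, n = 3) and B6 uninjured (C57BL/6J, n = 3). They made 11 libraries from 6 animals, and 5 animals gave both regions, so that their uninjured regions come from injured hearts. The sources used here do not name the wounding method, and C3H animal 3 has an uninjured library only.

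Fibroblasts build and maintain the collagen matrix between heart muscle cells. In the resting heart they are recognised by the growth factor receptor PDGFRα and the collagen receptor DDR2, and after damage they multiply, move into the wound and turn to a matrix-producing state in which genes such as Fap, Cthrc1 and Cilp are switched on. No single marker is exclusive to them: Thy1 is also carried by T cells and neurons, S100a4 by leukocytes, and Gsn by heart and smooth muscle cells. In bulk tissue, more cells of a type and more RNA per cell cannot be told apart.

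Values are normalised read counts, the reads assigned to a gene divided by 1 size factor per library. Each library held 9699985 to 22138459 assigned reads, and no member had fewer than 35 reads in any library. Changes are log2 fold changes of normalised count + 1 with their standard error (SE), and adjusted p is that of limma over all 14751 genes tested, of which all 10 members were part. Strain could not be told apart from sex: Xist was at 1840 to 8478 in the C3H libraries and at 3.14 to 12.2 in the B6 libraries, with Y-linked genes the other way round. C3H reads were also aligned to a B6 genome, which can undercount them where the strains differ in sequence.

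The promoters of the members that passed the test for injury in C3H and that have an entry are shown, to set the upstream sequence beside genes that moved in the same and in opposite directions. RefSeq's promoter table (GRCm38.p6) matched 6 of the 10 members, with 8 entries, and Thy1, Fap, Cthrc1 and Meox1 had none there. Printed are the 150 bases before the annotated start on the gene's own strand, chr3:90603620-90603769 for S100a4, chr9:65265030-65265179 for Cilp, chr5:75152101-75152250 for Pdgfra and chr2:35256209-35256358 for the first of 3 Gsn entries, all on the plus strand. Capitals mark matches to TATAAA or GGGCGG on either strand.
S100a4: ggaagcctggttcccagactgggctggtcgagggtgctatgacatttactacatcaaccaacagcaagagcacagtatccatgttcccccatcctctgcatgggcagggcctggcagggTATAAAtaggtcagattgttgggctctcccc
Cilp: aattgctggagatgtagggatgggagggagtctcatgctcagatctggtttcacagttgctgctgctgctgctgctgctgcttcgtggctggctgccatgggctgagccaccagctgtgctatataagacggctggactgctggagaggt
Pdgfra: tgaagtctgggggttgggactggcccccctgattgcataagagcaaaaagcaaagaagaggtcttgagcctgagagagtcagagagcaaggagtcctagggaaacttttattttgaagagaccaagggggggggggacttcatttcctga
Gsn: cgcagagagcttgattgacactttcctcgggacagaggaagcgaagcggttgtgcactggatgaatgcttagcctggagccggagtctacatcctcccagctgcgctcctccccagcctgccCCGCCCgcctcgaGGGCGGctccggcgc
Relative to the annotated start, TATAAA, the core of the TATA box, lay at -31 to -26 in S100a4, and GGGCGG, the GC box, lay at -28 to -23, -15 to -10 and, beyond the printed stretch, 35 to 40 in this Gsn entry. The other Gsn entries held GGGCGG too, and Ddr2 and Dpt held TATAAA at -185 to -180 and at 12 to 17. Over the whole window of 300 bases, Cilp and Pdgfra had 0 matches to these motifs or to TGANTCA (AP-1) and GGAATG (TEAD), which were searched on both strands and chosen after the expression values were seen. Of the 32851 promoter entries counted, 13.6% held TATAAA, 35.7% GGGCGG, 7.81% TGANTCA and 14.7% GGAATG. The count left out a chromosome that holds none of the members. Only exact letters were counted, so variants such as the tatataa in the printed Cilp stretch were not. These matches describe the letters only.

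The first comparison asked which fibroblast markers differed between injured and uninjured regions of C3H hearts. Cthrc1, Cilp, S100a4, Fap and Pdgfra rose and Gsn fell, so that 5 of 10 members were called higher and 1 lower. After quantile normalization 6 were called higher and 0 lower by limma, as Dpt gained and Gsn lost the call. Over all genes tested the share called higher was 15.3% and the share called lower 15.4%. The median log2 change was 2.88 over the 4 activation genes, 3 of them called, against 0.95 over the 6 identity genes, 2 of them called higher, a difference that was not tested. The ranges overlapped, since the identity gene S100a4 changed more than Fap and Meox1. The median over all genes was 0.01. Of the members, 7 were higher in both injured libraries than in any uninjured library, which held for 29.6% of all genes.

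Cthrc1 encodes a secreted protein with a collagen triple helix repeat and marks matrix-producing fibroblasts of the mouse infarct scar. Its normalised counts were 2746 and 905 in the C3H injured libraries, against 451, 36.6 and 67.5 in the C3H uninjured libraries. Both injured libraries lay above all uninjured ones, and uninjured library 1 was several times the other uninjured libraries. The log2 change was 3.91 (SE 0.86, limma adjusted p = 0.00566). Without C3H injured library 1 the call was lost (3.11, limma adjusted p = 0.0643), and without C3H uninjured library 1 the change was 4.96.

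Cilp encodes a matrix protein of cartilage that binds TGF-beta and that heart fibroblasts make after damage. Its normalised counts were 2899 and 2065 in the C3H injured libraries, against 334, 69.1 and 295 in the C3H uninjured libraries. The groups were far apart, and the lowest value, in uninjured library 2, came from an animal whose injured region was also the lower one. Cilp rose by 3.68 on the log2 scale (SE 0.57, limma adjusted p = 0.000910), and by 2.96 without C3H uninjured library 2.

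Fap encodes a membrane-bound serine protease of activated fibroblasts. It had normalised counts of 659 and 520.1 in C3H injured regions, against 216, 93.2 and 129.6 in C3H uninjured regions, with no overlap. It rose by 2.08 (SE 0.42, limma adjusted p = 0.00343). Meox1, a homeobox transcription factor tied to fibroblast activation in mouse hearts, was the activation gene not called in the fit with no animal term. It had 757 and 256 in C3H injured regions, against 348, 97.4 and 422 in C3H uninjured regions. The groups overlapped, since the injured region of animal 2 was lower than the uninjured regions of animals 1 and 3 (0.86, SE 0.58, limma adjusted p = 0.278). The change was 0.075 without C3H injured library 1, 0.20 without C3H uninjured library 2 and 1.64 without C3H injured library 2, with no call in any of them. Within the hearts of animals 1 and 2 Meox1 was higher in the injured region, by 1.12 and 1.38. With the animal as a fixed block, which leaves 3 residual degrees of freedom and uses no information from animal 3 of C3H, Meox1 was called (1.25, limma adjusted p = 0.00375). It was not called with the animal as a random block.

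Among the identity genes S100a4 moved most. It encodes a small calcium-binding protein, once taken as a fibroblast marker under the name FSP1 and also made by macrophages and other leukocytes. It had normalised counts of 1704 and 2431 in C3H injured regions, against 268, 196 and 277 in C3H uninjured regions. The groups did not overlap, and the spread within each was small beside the gap. S100a4 rose by 3.05 (SE 0.48, limma adjusted p = 0.000944). In GENCODE M21, 302 of its 584 exon bases are shared with Gm42674 on the same strand, which is not among the genes of the table.

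Macrophage and monocyte markers were also higher in these injured regions, where 12 of 15 rose and 0 fell. Their summed normalised count was 83113 to 147065 in C3H injured regions, against 15883 to 29059 in C3H uninjured regions. Lyz2, the lysozyme gene and the most abundant of them, had 44705 and 75536 in C3H injured regions, against 6196, 10017 and 6327 in C3H uninjured regions. Of 10 T cell markers tested, 1 rose (Il7r, the interleukin-7 receptor gene). The sum over the 11 found was 1198 to 2034 in C3H injured and 168 to 256 in C3H uninjured regions. Most of the injured sum was Il7r alone, at 962 and 1822 in C3H injured regions, against 20.8, 26.2 and 12.4 in C3H uninjured regions. Of 8 neutrophil markers tested, 1 rose (Csf3r), with sums of 361 to 1646 in C3H injured and 70.3 to 1993 in C3H uninjured regions, and S100a9, the most abundant, was not called (0.20, SE 1.80). None of these markers found in the table was at 0 in every library of a group. The part of leukocytes in the S100a4 result was not tested.

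The surface receptors changed less. Pdgfra, the receptor for platelet-derived growth factors that defines cardiac fibroblasts, had 2336 and 3701 in C3H injured regions, against 1732, 1718 and 1059 in C3H uninjured regions. All injured values were higher, library 2 most clearly. Pdgfra rose by 1.00 (SE 0.28, limma adjusted p = 0.0180), and the call was lost without C3H injured library 2 (0.67, limma adjusted p = 0.210), without C3H uninjured library 3 (0.77, limma adjusted p = 0.0664) and in a fit of the 2 C3H groups alone (limma adjusted p = 0.0552). Ddr2, a receptor tyrosine kinase activated by collagen, had 1511 and 1019.7 in C3H injured regions, against 1239.7, 622 and 497 in C3H uninjured regions. These groups overlapped (0.77, SE 0.42, limma adjusted p = 0.180), and without C3H uninjured library 1 Ddr2 was called (1.16, limma adjusted p = 0.0385).

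Thy1 and Dpt were higher in both injured libraries and did not pass the test, but each was called under some other settings. Thy1, a glycoprotein anchored in the cell membrane, had 1058 and 583 in C3H injured regions, against 496, 117 and 561 in C3H uninjured regions (1.29, SE 0.60, limma adjusted p = 0.122). Dpt, which encodes the matrix protein dermatopontin, had 5396 and 3684 in C3H injured regions, against 3049, 1505 and 3052 in C3H uninjured regions (0.89, SE 0.40, limma adjusted p = 0.115). In both genes the higher uninjured libraries, 1 and 3, came nearest to injured library 2, and for Thy1 almost reached it. Without C3H uninjured library 2 the changes were 0.57 for Thy1 and 0.55 for Dpt. With the animal as a fixed block Thy1 was called (1.70, limma adjusted p = 0.00134), as was Dpt (1.06, limma adjusted p = 0.00917). With the animal as a random block Thy1 and Dpt were called, with limma adjusted p of 0.0202 and 0.0248. Dpt was also called after quantile normalization with no animal term (1.18, limma adjusted p = 0.0331). Schwann cell and neuron markers, which could share in Thy1, had sums of 3748 to 4525 in C3H injured and 1967 to 2714 in C3H uninjured regions, and 3 of 11 rose (Ncam1, Mbp and Pmp22). Their part in the Thy1 values was not tested.

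Gsn was the member that fell. It encodes gelsolin, which severs and caps actin filaments, and was the most abundant member per kilobase in all 4 groups. Its normalised counts were 15256 and 14793 in C3H injured regions, against 39347, 25432 and 34465 in C3H uninjured regions. Every injured value was below every uninjured one, and the injured libraries were close to each other. Gsn fell by 1.12 on the log2 scale (SE 0.28, limma adjusted p = 0.0107). The call was lost without C3H injured library 1 (-1.14, limma adjusted p = 0.0568), without C3H injured library 2 (-1.09, limma adjusted p = 0.0822) and after quantile normalization (-0.61, limma adjusted p = 0.117), which moved the median change of all genes to -0.11.

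Cardiomyocyte markers were lower in the same libraries, where 9 of 13 fell and 0 rose. Their summed normalised count was 720043 to 753813 in C3H injured regions, against 1929272 to 2253308 in C3H uninjured regions. Myh6, the alpha myosin heavy chain gene and the most abundant of them, had 149911 and 181899 in C3H injured regions, against 593019, 373939 and 398943 in C3H uninjured regions. The mural cell list, of pericytes and smooth muscle, had sums of 53671 to 55272 in C3H injured regions and 78814 to 102404 in C3H uninjured regions. Of its 10 genes, 2 rose (Cnn1 and Pdgfrb) and 2 fell (Des and Kcnj8). In this list 7 of 10 changes were above 0, with a median of 0.43. Des, which is also a heart muscle gene, made up most of the sum. It was at 32648 and 39169 in C3H injured regions, against 54524, 86992 and 69020.5 in C3H uninjured regions. The part of muscle cells in the Gsn result was not tested.

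**Figure D1:**
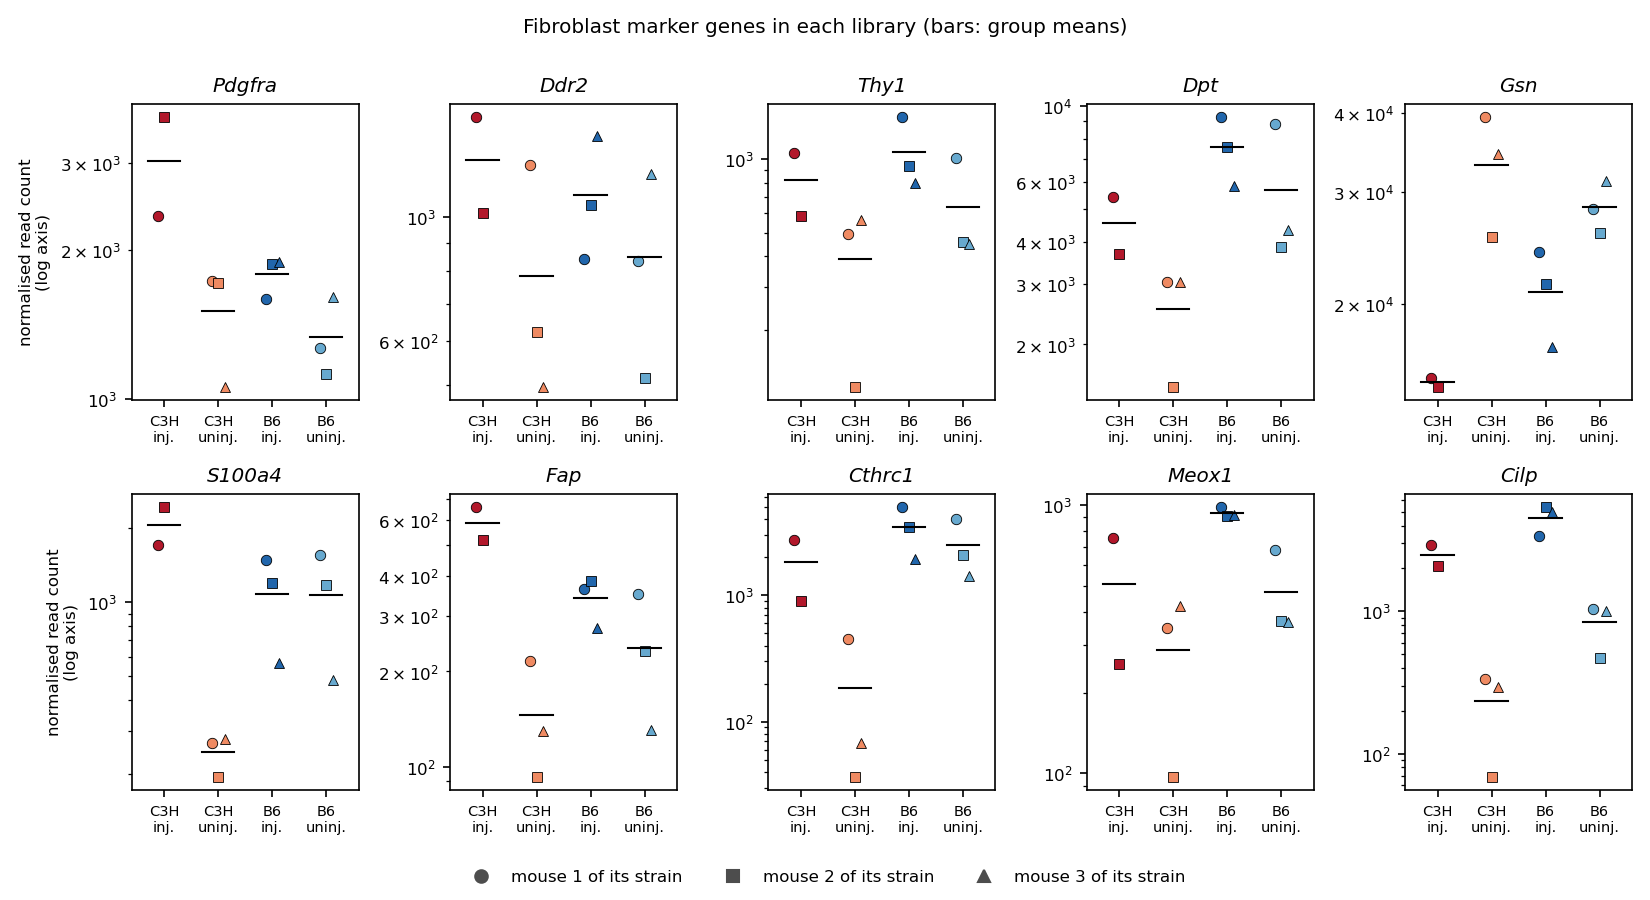
Normalised read counts (log axis) of each fibroblast marker gene in the 11 libraries, grouped as C3H injured, C3H uninjured, B6 injured and B6 uninjured, with the symbol giving the mouse and the bar the group mean. Cthrc1 lies between 36.6 and 451 in C3H uninjured regions, against 1413 to 4007 in B6 uninjured regions, and Gsn is lower in injured than in uninjured regions of both strains.

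The next comparison asked the same of B6 hearts. None of the 10 members was called by limma without an animal term (0.0136% of all genes were), and edgeR called 0. DESeq2 called 1, as did limma with the animal as a fixed or random block. An unadjusted limma p under 0.05 was reached by 1 member (Cilp) and by 1979 of all 14751 genes. The log2 changes were above 0 in 9 of 10 members, with a median of 0.50 over the members against 0.01 over all genes. Of the members, 2 (Cilp and Meox1) were higher in every injured library than in any uninjured library, as were 9.83% of all genes.

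Cilp had the largest change. Its normalised counts were 3351, 5355 and 4943 in B6 injured regions, against 1040.0, 467 and 1003 in B6 uninjured regions. Every injured region held over 3 times the highest uninjured value. The change was 2.50 (SE 0.51, limma adjusted p = 0.323), and it was called with the animal as a fixed block (limma adjusted p = 0.0256), as a random block (limma adjusted p = 0.0409) and by DESeq2 (2.44, adjusted p = 0.000351). Without C3H uninjured library 2, which enters only through the shared estimate of spread, it was also called (limma adjusted p = 0.0279). Meox1 had 979, 911 and 921 in B6 injured regions, against 680.3, 371 and 368 in B6 uninjured regions. The injured libraries were nearly equal and the uninjured library of animal 1 stood above the other 2 (1.05, SE 0.52, limma adjusted p = 0.392).

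Cthrc1 was high in both regions of B6 hearts. It had 4964, 3446 and 1949 in B6 injured regions, against 4007, 2074 and 1413 in B6 uninjured regions. The animals kept their order in both regions, so that the groups overlapped although each heart was higher in its injured region (0.50, SE 0.77, limma adjusted p = 0.784). S100a4 had 1489.7, 1196 and 566 in B6 injured regions, against 1562, 1180.0 and 482 in B6 uninjured regions. Here too the animals differed more than the regions (0.06, SE 0.43, limma adjusted p = 0.959). The sign of the S100a4 change turned when 1 library was left out, with -0.22 without B6 injured library 1, -0.07 without B6 injured library 2 and -0.44 without B6 uninjured library 3.

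Fap had 364, 386 and 275 in B6 injured regions, against 350.2, 232 and 131 in B6 uninjured regions, with animal 1 alike in both (0.62, SE 0.37, limma adjusted p = 0.463). Pdgfra had 1593, 1874 and 1893 in B6 injured regions, against 1268, 1124 and 1605 in B6 uninjured regions (0.43, SE 0.25, limma adjusted p = 0.447). Gsn had 24091, 21478 and 17099.6 in B6 injured regions, against 28165, 25839.9 and 31178 in B6 uninjured regions (-0.45, SE 0.25, limma adjusted p = 0.430). The B6 groups overlapped for Fap and Pdgfra, whereas all 3 injured values of Gsn were below the uninjured ones.

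Thy1 had 1482, 936 and 802 in B6 injured regions, against 1007, 456 and 449 in B6 uninjured regions. Dpt had 9248, 7590.2 and 5824 in B6 injured regions, against 8837, 3847 and 4336 in B6 uninjured regions. Ddr2 had 842, 1053 and 1397 in B6 injured regions, against 835, 514 and 1194 in B6 uninjured regions. In all 3 genes animal 2 showed the widest gap between its regions, the groups overlapped, and the changes of 0.81 (Thy1), 0.49 (Dpt) and 0.42 (Ddr2) had limma adjusted p of 0.50, 0.540 and 0.607. Of the marker lists, macrophage sums were 43503 to 60087 in B6 injured and 27654 to 39376 in B6 uninjured regions. Cardiomyocyte sums were 1032450 to 1264812 in B6 injured and 1688728 to 2006039 in B6 uninjured regions. Limma called 0 genes of either list. An unadjusted limma p under 0.05 held for 5 of 15 macrophage and 3 of 13 cardiomyocyte genes, against 1979 of all 14751 genes.

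**Figure D2:**
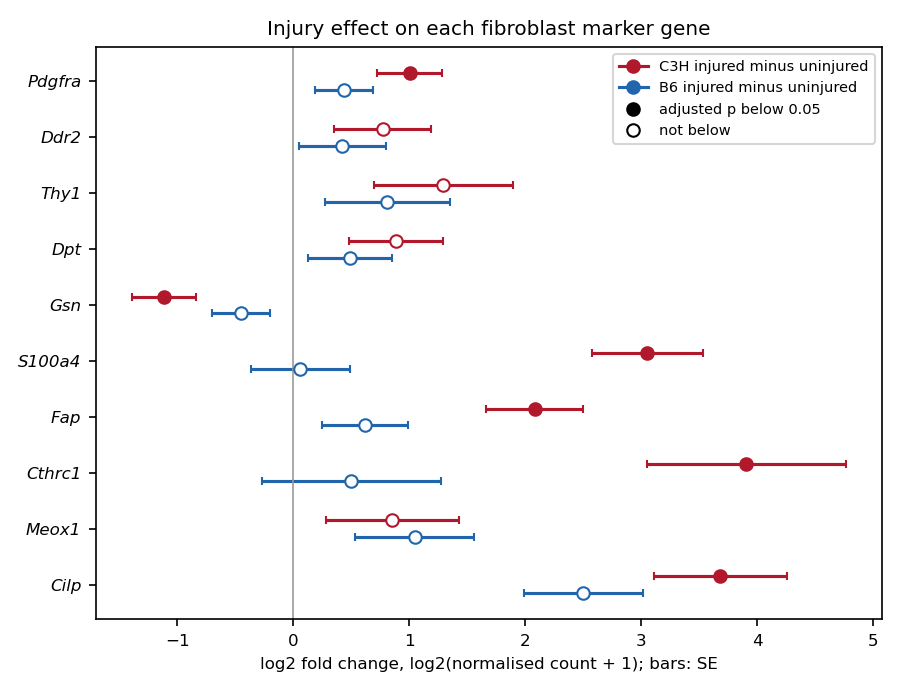
Log2 change of each fibroblast marker gene between injured and uninjured regions, in C3H above and B6 below each line, with bars of 1 SE and filled symbols where the limma adjusted p was below 0.05. Cthrc1 (3.91), Cilp (3.68) and S100a4 (3.05) have the largest changes in C3H, and Gsn is below 0 in both strains.

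Since 5 hearts gave both regions, each member can also be read within the heart. Of the 10 members, 8 were higher in the injured region of all 5 hearts. S100a4 was higher in 2 of 2 C3H and 2 of 3 B6 hearts, and Gsn was lower in all 5. The share of all genes with the same direction in every heart was not counted, so these counts only describe the members. Cilp differed by 3.11 and 4.88 (log2) in the C3H hearts and by 1.69, 3.52 and 2.30 in the B6 hearts. Cthrc1 differed by 2.60 and 4.59 in the C3H hearts and by 0.31, 0.73 and 0.46 in the B6 hearts. For Cilp the widest B6 gap exceeded the narrower C3H gap, whereas for Cthrc1 the strains stood apart. S100a4 differed by 2.66 and 3.63 in the C3H hearts and by -0.07, 0.02 and 0.23 in the B6 hearts.

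**Figure D3:**
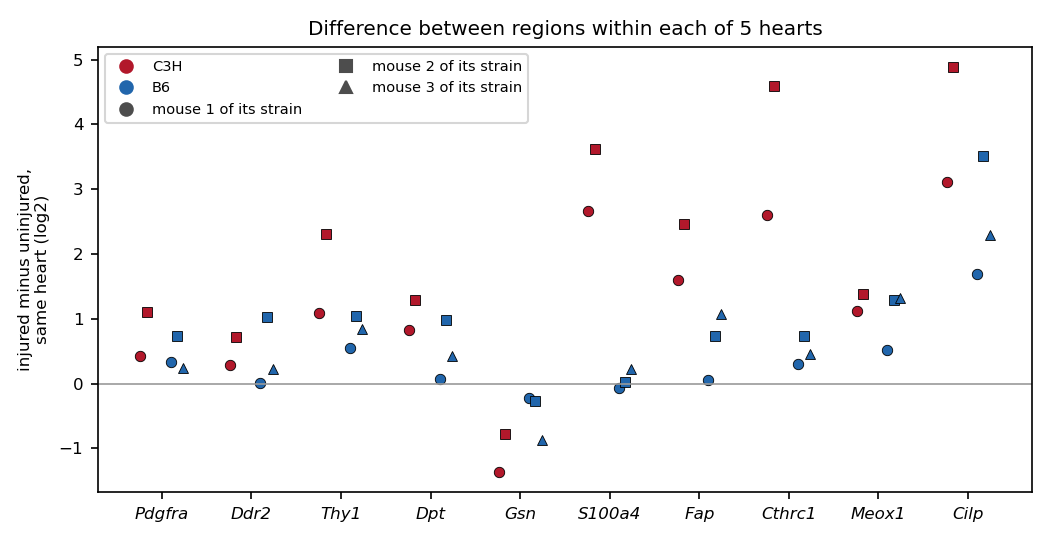
Difference in log2(normalised count + 1) between the injured and the uninjured region of the same heart, for each fibroblast marker gene in 2 C3H and 3 B6 hearts. S100a4 lies between 2.66 and 3.63 in C3H hearts, against -0.07 to 0.23 in B6 hearts, and Gsn is below 0 in all 5 hearts.

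The difference between the injury effects of the strains was tested as an interaction term, C3H minus B6. S100a4 was called, with a difference of 2.99 (SE 0.64, limma adjusted p = 0.0400), and it was the only 1 of the 10 members, against 1.57% of all genes. Cthrc1 had the largest difference at 3.41 (SE 1.16, limma adjusted p = 0.195), and was called with the animal as a fixed block (3.10, limma adjusted p = 0.00549), as a random block (3.28, limma adjusted p = 0.0391) and without C3H uninjured library 1 (4.46, limma adjusted p = 0.0165). Fap had 1.46 (SE 0.56, limma adjusted p = 0.256) and Cilp 1.18 (SE 0.77, limma adjusted p = 0.529). Gsn had -0.66 (SE 0.37, limma adjusted p = 0.453). The remaining members were between -0.19 (Meox1) and 0.57 (Pdgfra).

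The call of the S100a4 difference was lost with any 1 of 9 of the 11 libraries left out, and was kept without B6 injured library 1 or B6 uninjured library 3. The difference was 2.58 to 3.49 over the 11, with limma adjusted p of 0.00631 to 0.279. The call was also lost in a fit with no mean-variance trend (limma adjusted p = 0.0891). With the animal as a block it remained called. Macrophage markers differed in the same direction, with 4 of 15 called (Cd68, Adgre1, Lyz2 and Cd14, named here after their values were seen) and Lyz2 at 2.51 (SE 0.44, limma adjusted p = 0.0162). Of 10 T cell markers tested, Il7r was the 1 called, at 4.53 (SE 0.61, limma adjusted p = 0.00516). Only 4 of the 10 were above 0, with a median of -0.12. Of 8 neutrophil markers 0 were called, and 8 were above 0. The part of leukocytes in the S100a4 difference was not tested.

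In uninjured regions, C3H hearts were compared with B6 hearts. Cthrc1 and S100a4 were lower in C3H, so that 2 of 10 members were called, against 3.1% of all genes in either direction. Cthrc1 had 451, 36.6 and 67.5 in C3H uninjured regions, against 4007, 2074 and 1413 in B6 uninjured regions, a change of -4.43 (SE 0.77, limma adjusted p = 0.00826). The highest C3H value was below the lowest B6 value. Without B6 uninjured library 1 the call was lost (-4.03, limma adjusted p = 0.0555), and over the libraries left out the change was -5.49 (without C3H uninjured library 1) to -3.69 (without C3H uninjured library 2).

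S100a4 had 268, 196 and 277 in C3H uninjured regions, against 1562, 1180.0 and 482 in B6 uninjured regions, again with no overlap (-1.97, SE 0.43, limma adjusted p = 0.0290). The call was lost in a fit of these 2 groups alone (limma adjusted p = 0.0506), with no mean-variance trend (limma adjusted p = 0.0555), and when any of C3H uninjured libraries 1, 2 or 3 or B6 uninjured libraries 1 or 2 was left out, with limma adjusted p up to 0.137. Of the macrophage markers, 2 of 15 were lower in C3H uninjured regions and 0 higher (Fcgr1 and C1qb). Their summed counts of 15883 to 29059 in C3H uninjured regions overlapped those of 27654 to 39376 in B6 uninjured regions. The part of macrophages was not tested.

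Cilp was lower in every C3H uninjured library than in any B6 one and just missed the threshold (-2.05, SE 0.51, limma adjusted p = 0.0539). It was called by DESeq2 (-1.85, adjusted p = 0.00376) and without C3H uninjured library 1 (-2.45, limma adjusted p = 0.0334). Dpt was likewise below all B6 uninjured libraries (-1.13, SE 0.36, limma adjusted p = 0.132) and was called by DESeq2 (-1.16, adjusted p = 0.0372). Pdgfra and Ddr2, the receptors, had 0.15 (SE 0.25, limma adjusted p = 0.817) and -0.14 (SE 0.37, limma adjusted p = 0.898), with overlapping groups. The sign for Ddr2 turned without C3H uninjured library 3 (0.13) or B6 uninjured library 3 (0.15).

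In injured regions none of the 10 members was called between C3H and B6, against 7.06% of all genes. With limma 1 member had an unadjusted p under 0.05 (Pdgfra, 0.72, SE 0.28, limma adjusted p = 0.139), as did 3515 of all 14751 genes. Both edgeR and DESeq2 called 0 members. Of the members, 3 (Pdgfra, S100a4 and Fap) were higher in both C3H injured libraries than in any B6 injured library, and 4 (Dpt, Gsn, Meox1 and Cilp) were lower than all of them. Over all genes these shares were 24.9% higher and 24.2% lower. S100a4 was at 1.02 (SE 0.48, limma adjusted p = 0.220), Cthrc1 at -1.03 (SE 0.86, limma adjusted p = 0.499), Meox1 at -1.09 (SE 0.58, limma adjusted p = 0.277) and Cilp at -0.87 (SE 0.57, limma adjusted p = 0.389). For Cthrc1 the log2 difference between the strains was thus -1.03 in injured and -4.43 in uninjured regions, and the interaction is the test of that gap. In injured regions the Cthrc1 difference was -1.83 without C3H injured library 1 and -0.23 without C3H injured library 2, and the Meox1 difference -1.87 and -0.31.

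Levels of different genes can be compared only per length, here as normalised counts per kilobase of exons. Gsn was the highest in each group, at 4759 ± 104 in C3H injured (SD, n = 2), 10479 ± 2236 in C3H uninjured, 6617 ± 1119 in B6 injured and 8994 ± 848 in B6 uninjured regions (SD, n = 3), and Fap the lowest, at 104 ± 17.3, 25.8 ± 11.1, 60.3 ± 10.3 and 42.0 ± 19.4. Below Gsn in C3H injured regions came S100a4 (3540 ± 881) and Dpt (2633 ± 702), which overlapped, and then Cthrc1 (1146 ± 817) and Cilp (584 ± 139), which overlapped too. In C3H uninjured regions Dpt (1471 ± 517) and S100a4 (423 ± 76.4) followed without overlap, and the next 7 genes, Pdgfra (149.9 ± 38.3) to Fap, each overlapped their neighbour. In B6 injured regions Dpt (4382 ± 993) stood second without overlap, ahead of Cthrc1 (2167 ± 946), S100a4 (1856 ± 809) and Cilp (1070.1 ± 249). In B6 uninjured regions Dpt (3291 ± 1596), S100a4 (1840.1 ± 938) and Cthrc1 (1568 ± 846) overlapped in turn. Cthrc1 thus had rank 4 in C3H injured, 7 in C3H uninjured, 3 in B6 injured and 4 in B6 uninjured regions.

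Set against Pdgfra in the same library, activation genes can be read relative to a receptor of the resting fibroblast, and these ratios are a description with no test. Pdgfra itself was called higher in injured C3H regions (1.00, SE 0.28, limma adjusted p = 0.0180), which lowers the ratios there. The ratio of Cthrc1 to Pdgfra was 1.18 and 0.245 in C3H injured libraries, 0.260, 0.0213 and 0.0637 in C3H uninjured libraries, 3.12, 1.84 and 1.03 in B6 injured libraries and 3.16, 1.85 and 0.880 in B6 uninjured libraries. The C3H regions overlapped, since the lower injured ratio, 0.245, was below the highest uninjured ratio, 0.260. In B6 hearts the ratio of Cthrc1 to Pdgfra was close in both regions of each animal. The ratio of Cilp to Pdgfra was 1.24 and 0.558 in C3H injured libraries, 0.193, 0.0402 and 0.278 in C3H uninjured libraries, 2.10, 2.86 and 2.61 in B6 injured libraries and 0.820, 0.415 and 0.625 in B6 uninjured libraries. For Cilp, injured and uninjured libraries did not overlap in either strain. Meox1 against Pdgfra overlapped between regions of C3H, at a log2 difference of -3.85 to -1.62 in C3H injured and -4.13 to -1.33 in C3H uninjured regions.

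**Figure D4:**
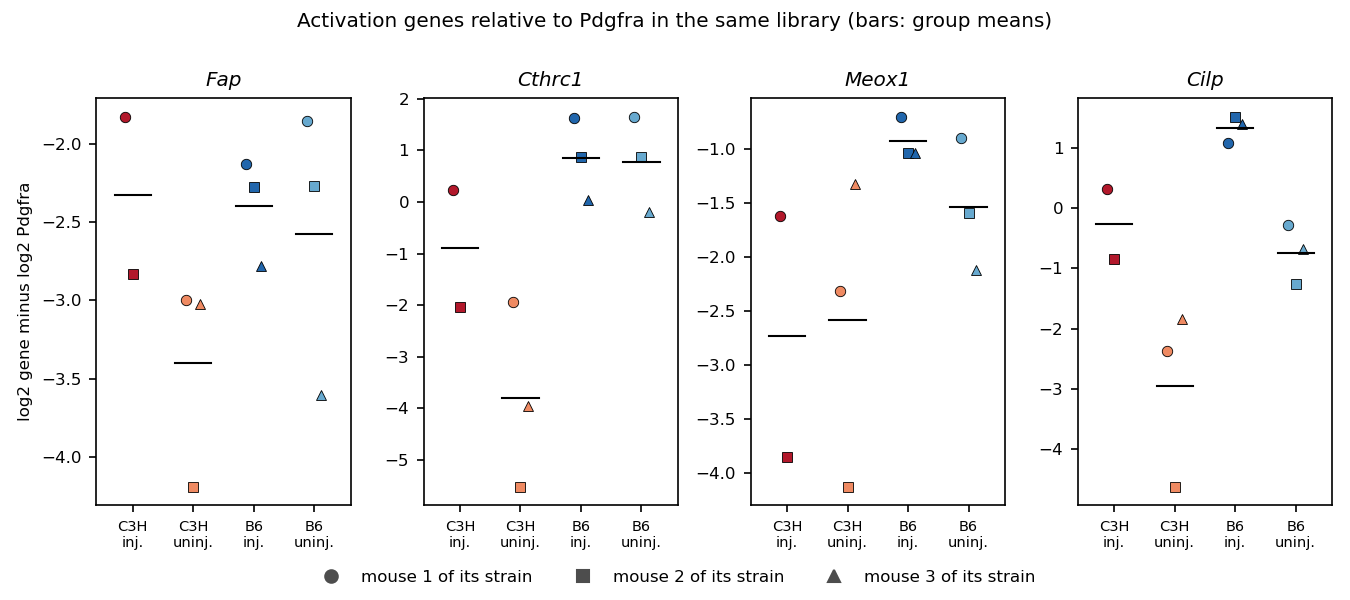
Log2 of Fap, Cthrc1, Meox1 and Cilp minus log2 of Pdgfra in the same library, with the bar at the group mean. Cthrc1 lies between -5.51 and -1.94 in C3H uninjured regions, against -0.18 to 1.66 in B6 uninjured regions, and Cilp is higher in injured than in uninjured libraries of each strain.

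Other fibroblast genes, listed without the members, are described beside them. These lists were chosen with earlier results of these data known, so their counts are no independent support. Of 21 other activated fibroblast genes tested, 17 rose and 0 fell in injured C3H regions, with a median of 3.40. Over all genes tested the share called higher was 15.3%. The largest changes were those of Ltbp2, Fmod and Adam12. Ltbp2, an extracellular matrix protein, rose by 6.10 (SE 0.74, limma adjusted p = 0.000203). Fmod, the collagen-binding fibromodulin, rose by 4.86 (SE 0.60, limma adjusted p = 0.000237). Adam12, a membrane metalloprotease, rose by 4.62 (SE 0.84, limma adjusted p = 0.00207). Fn1, fibronectin and the most abundant of this list, rose by 4.12 (SE 0.89, limma adjusted p = 0.00511). In B6 1 of the 21 rose, Thbs4 (4.15, SE 0.36, limma adjusted p = 0.00114). There 12 of the 21 had an unadjusted limma p under 0.05, against 1979 of all 14751 genes. All changes in B6, 21 of 21, were above 0, with a median of 1.12. In uninjured regions 4 of them were lower in C3H, Sfrp2 (-4.01), Postn (-2.73), Lox (-1.92) and Runx1 (-1.41), named after their values were seen, and Runx1 was also the 1 gene of the list whose injury effect was called larger in C3H (2.86, SE 0.46, limma adjusted p = 0.0113).

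Of 22 other resident fibroblast genes, 9 rose and 1 fell (Scara5, -1.04) in injured C3H regions, with a median of 1.01. Limma called 0 of them in B6, where 20 were above 0, with a median of 0.54. There 2 of the 22 had an unadjusted limma p under 0.05, against 1979 of all 14751 genes. The 3 largest changes in C3H were the fibrillar collagens Col1a1 (3.65, SE 0.94, limma adjusted p = 0.0124), Col1a2 (3.41, SE 0.76, limma adjusted p = 0.00590) and Col3a1 (3.00, SE 0.81, limma adjusted p = 0.0158). The summed count of this list was 626801 to 803977 in C3H injured, 78311 to 302829 in C3H uninjured, 481881 to 492817 in B6 injured and 229321 to 448213 in B6 uninjured regions. The highest uninjured sum of both strains was that of library 1, as for Cthrc1 and Fap. Endothelial markers, with 3 of 10 lower in injured C3H regions (Esam, Emcn and Egfl7), had overlapping sums. These were 17448 to 21947 in C3H injured and 20286 to 29930 in C3H uninjured regions. Epicardial sums also overlapped, at 1875 to 2540 in C3H injured and 1875 to 2947 in C3H uninjured regions. Of 10 epicardial markers 0 were called by limma and 0 had an unadjusted p under 0.05, against 6241 of all 14751 genes. The most abundant endothelial and epicardial genes, Cdh5 (-0.11, SE 0.37) and Msln (-1.01, SE 0.98), were not called.

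**Figure D5:**
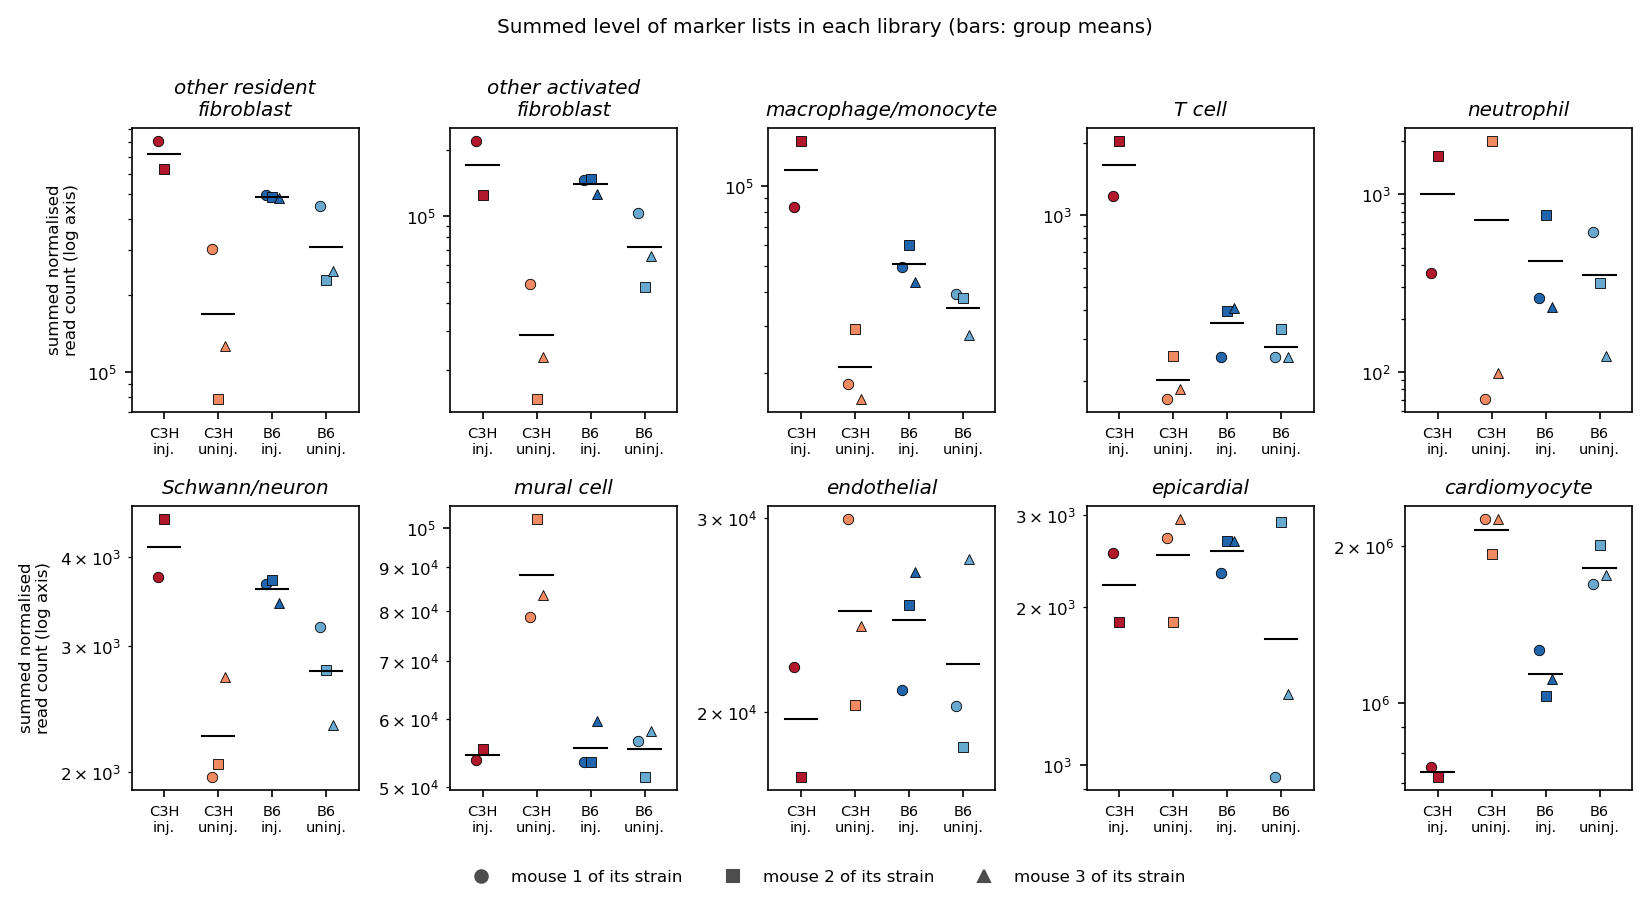
Summed normalised read count (log axis) of each marker list in the 11 libraries, with bars at group means. Macrophage sums are 83113 to 147065 in C3H injured regions, against 15883 to 29059 in C3H uninjured regions, and cardiomyocyte sums are 720043 to 753813 in C3H injured regions, against 1929272 to 2253308 in C3H uninjured regions.

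The genes most like each member were found by the root mean square difference of centred log2 values over the 11 libraries, among 12005 genes with a mean of at least 50. The libraries share animals and strains, and genes that vary little are close to many others. Cthrc1 was nearest to Sfrp2 (0.57) and Wisp2 (0.68), where its median distance to all genes was 2.31. Cilp was nearest to Postn (0.70) and Sfrp1 (0.71), with a median distance of 1.94. S100a4 was nearest to Snx20 (0.35) and Bcl2a1d (0.36), with a median of 1.29, and Fap to Slc16a3 (0.23) and Actb (0.24), with a median of 0.95. Meox1 was nearest to Aldh1a2 (0.26) and Mex3b (0.29), Thy1 to Pbk (0.26) and Phlda3 (0.26), Dpt to Csrp1 (0.23) and Mex3b (0.25), Pdgfra to Ap3b1 (0.13) and Hps5 (0.15), Ddr2 to Rpgrip1l (0.12) and Plcb3 (0.19), and Gsn to Flad1 (0.13) and Gm5069 (0.15). Among the members themselves Thy1 and Meox1 were closest (0.33), and Gsn and Cthrc1 farthest apart (2.45).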

How the data were processed

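RNA sequencing of 11 heart libraries was analysed. Per the submitters' processing notes, reads were aligned with TopHat2 2.0.11 to mm9, counted per gene with HTSeq 0.6.1 and normalised with DESeq. No source used here names its version, the annotation, strandedness or filters. The signal deposited by the authors is the read count of each gene divided by 1 size factor per library. All values (100%) were whole multiples of 1 step per library at a tolerance of 1e-06, which gave back the reads behind them, 9699985 to 22138459 per library.

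The deposited signal was analysed as log2(value + 1), which understates changes of low genes. A gene entered the tests if 2 or more libraries reached 10 (14751 genes, with 523 left out). Using limma 3.58.1 under R 4.3.3, 1 linear model took the 4 groups as levels and all 11 libraries as observations, leaving 7 residual degrees of freedom, and the prior variance followed the mean level. Two-sided p-values were adjusted by Benjamini-Hochberg across the tested genes, and 0.05 was the threshold. Contrasts (5) covered injury in C3H, injury in B6, their difference, and C3H against B6 in injured and in uninjured tissue. The procedure was tested on simulated data.

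The labels name the mouse behind each library, which pairs both regions of 5 hearts. Residuals of the 2 regions correlated at 0.305 and 0.575 in C3H animals 1 and 2 and at 0.276, -0.0140 and 0.524 in B6 animals 1 to 3, and at 0.392 as a consensus over all genes. The animal entered as a fixed or random block in alternatives, and blocked values stand beside results whose call they change. The other alternatives were pseudocounts of 0.5 and 5, no filter or a mean of at least 50, quantile and TMM normalization, edgeR 4.0.16 and DESeq2 1.42.0 on the recovered counts, only the groups compared, no trend, and leaving out each library over the same genes.

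Members and gene lists (other resident and other activated fibroblast, macrophage and monocyte, T cell, neutrophil, Schwann cell and neuron, mural, endothelial, epicardial and cardiomyocyte) were chosen with earlier results of these data known. Named by rule were all members, the 2 genes most like each, the most abundant gene of each list, and the 3 largest called changes in C3H of both fibroblast lists. Others were named after their values were seen. Exon lengths come from GENCODE M21. Promoter motifs, scaling per kilobase, the counts of groups without overlap and the gene set for leaving out libraries were chosen after the files were seen.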

Additional observations from a re-analysis of the deposited data

Results flagged for a closer look

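The effect of injury on S100a4, which encodes a calcium-binding protein of fibroblasts and leukocytes, differed between the strains by a test of the difference itself. It was larger in C3H than in B6 hearts by 2.99 on the log2 scale (SE 0.64, limma adjusted p = 0.0400). The call was lost with any 1 of 9 of the 11 libraries left out (limma adjusted p up to 0.279) and with no mean-variance trend (limma adjusted p = 0.0891). Within hearts the change was 2.66 and 3.63 in C3H and -0.07, 0.02 and 0.23 in B6. Strain cannot be told apart from sex here. Macrophage markers differed in the same direction, with 4 of 15 called. Of 10 T cell markers 1 was called, and the median was -0.12. Of 8 neutrophil markers 0 were called, and 8 were above 0. The part of leukocytes was not tested.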

How the results depend on the processing

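Of 1120 comparisons of a single member with its value under an alternative, 1066 kept direction and side of the threshold, 25 lost the call, 17 gained it and 12 changed sign. For injury in C3H the count of members called was 6 in the planned fit, 5 with only the groups compared, 8 and 9 with the replicate block (animal random and fixed), and 4 to 7 over the libraries left out. For injury in B6 it was 0, and 1 with DESeq2 and with either replicate block, and 0 to 1 over the libraries left out. For the difference of the injury effects it was 1, 2 with either replicate block, 0 with no mean-variance trend, and 0 to 1 over the libraries left out. For strain in uninjured regions it was 2, 4 with DESeq2, 1 with only the groups compared and with no trend, and 0 to 2 over the libraries left out. For strain in injured regions it was 0 in all settings run. The fixed block cannot give strain comparisons. The cause of these changes was not tested.

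Changes of sign, none in a called value, over the libraries left out were those of S100a4 in B6 (-0.44 to 0.47), the differences for Thy1 (-0.24 to 0.91) and Meox1 (-0.97 to 0.59), strain in injured regions for Ddr2 (-0.075 to 0.49) and Thy1 (-0.83 to 0.031), and strain in uninjured regions for Ddr2 (-0.52 to 0.15). The Meox1 difference was also 0.21 with the fixed block and -0.19 without it. With 1 C3H injured library left, that library is assumed to vary like the other groups. Every member had at least 35 reads in each library, and no result here rests on a count of 0. Over all genes, injury in B6 had 2 calls, against 45 with DESeq2, 20 with the fixed and 16 with the random block. The difference of injury effects had 231 calls, against 722 with DESeq2, 491 with the fixed and 777 with the random block, and 152 with no trend. Strain in injured regions had 1042 calls, against 2014 with DESeq2, and strain in uninjured regions 458, against 916 with DESeq2 and 191 with only the groups compared.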
